A study of Mus musculus with 12 samples.

Results

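The genes described here encode semaphorins, Slits and some of their receptors, secreted or membrane-bound guidance proteins and the surface proteins that read them. They are the ligands Sema7a, Sema3a, Sema3c, Sema3d, Sema3e, Slit2 and Slit3 and the receptors Robo1, Nrp1 and Plxnc1, 10 of the 35214 mouse genes to which transcripts of the files could be matched. They were chosen by name and with the read counts of the DMSO and DMSO+FGF2 libraries known, in which Sema7a and Slit3 differed in opposite directions. Every difference that uses the DMSO+FGF2 libraries is therefore given for these genes as a description with its error and without a test.

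RNA was measured in Ocy454 cells, a mouse cell line that matures toward osteocytes in culture, by sequencing of polyadenylated RNA. The cells were expanded at 33 °C, differentiated for 5 days at 37 °C, pretreated for 1 h, treated for 48 h and lysed on differentiation day 7. The DMSO group received vehicle and control medium, the DMSO+FGF2 group received vehicle and fibroblast growth factor 2 (FGF2) at 2 ng/mL, the BGJ398 group received 200 nM BGJ398, an inhibitor of the FGF receptor kinases, and the BGJ398+FGF2 group received both agents at these doses. Each of the 4 groups had 3 libraries, all from this immortalized line and with no animals involved. The labels call them triplicates and do not say that the cultures were independent, so each p-value reflects only how far these libraries vary, some of which may be technical.

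Semaphorins signal through plexins. The secreted class 3 semaphorins mostly need a neuropilin, such as Nrp1, as the ligand-binding part of a complex with a plexin, whereas Sema3e can bind Plxnd1 directly, and the lipid-anchored Sema7a binds Plxnc1 and integrins that contain Itgb1. Slits are large secreted proteins that bind Robo receptors with heparan sulfate as a co-factor. In mouse bone, Sema3a is known as a factor that restrains osteoclasts and favours osteoblasts, and Slit3 as a factor that links bone cells with vessel growth and bone formation.

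The sequences upstream of the genes whose libraries with and without FGF2 lay apart are shown so that genes that were higher and genes that were lower can be set side by side. They are the 250 bases before the RefSeq transcription start (assembly GRCm38.p6, an older build than the GRCm39 of the files), 5′ to 3′ on the strand of the gene, with CG dinucleotides in capitals. Of the 6 genes whose DMSO and DMSO+FGF2 libraries did not overlap, 5 have a window free of annotated exons. Slit3 is left out because its window holds one. The Sema3a window, from base 13396534, lies inside the gene, which is annotated from base 13125414, so it is not upstream of every model. Sema7a and Sema3e were higher with FGF2, and Sema3a, Sema3d and Plxnc1 were lower.
Sema7a, chr9:57939862-57940111, plus strand: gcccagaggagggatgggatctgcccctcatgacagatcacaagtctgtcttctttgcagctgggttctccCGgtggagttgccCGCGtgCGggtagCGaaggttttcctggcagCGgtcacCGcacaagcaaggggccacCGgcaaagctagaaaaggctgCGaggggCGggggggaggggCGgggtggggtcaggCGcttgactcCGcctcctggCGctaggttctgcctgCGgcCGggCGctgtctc
Sema3e, chr5:14025026-14025275, plus strand: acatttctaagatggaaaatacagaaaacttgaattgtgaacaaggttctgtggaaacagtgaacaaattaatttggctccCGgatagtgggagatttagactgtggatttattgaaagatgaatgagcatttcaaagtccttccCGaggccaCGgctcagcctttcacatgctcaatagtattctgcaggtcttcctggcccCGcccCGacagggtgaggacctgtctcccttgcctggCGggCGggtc
Sema3a, chr5:13396534-13396783, plus strand: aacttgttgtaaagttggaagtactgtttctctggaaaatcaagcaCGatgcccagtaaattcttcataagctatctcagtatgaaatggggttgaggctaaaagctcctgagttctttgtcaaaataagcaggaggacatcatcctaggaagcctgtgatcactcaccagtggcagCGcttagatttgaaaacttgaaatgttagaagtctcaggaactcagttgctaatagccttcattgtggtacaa
Sema3d, chr5:12382916-12383165, plus strand: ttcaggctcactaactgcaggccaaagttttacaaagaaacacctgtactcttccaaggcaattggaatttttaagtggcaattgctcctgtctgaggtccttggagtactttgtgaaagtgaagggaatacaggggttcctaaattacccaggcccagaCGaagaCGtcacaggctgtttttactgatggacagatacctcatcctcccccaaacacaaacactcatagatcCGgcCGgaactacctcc
Plxnc1, chr10:94944846-94945095, minus strand: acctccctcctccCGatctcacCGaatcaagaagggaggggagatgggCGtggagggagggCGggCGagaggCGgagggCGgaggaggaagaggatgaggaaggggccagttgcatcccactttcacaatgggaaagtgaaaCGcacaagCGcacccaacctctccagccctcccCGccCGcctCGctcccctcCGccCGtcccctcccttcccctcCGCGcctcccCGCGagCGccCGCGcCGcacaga
The Sema7a and Plxnc1 windows are rich in G and C, with 66.4% and 68.8% of bases and 17 and 22 CG dinucleotides, against medians of 52.4% and 6 over 32851 RefSeq promoters. The Sema3a, Sema3d and Sema3e windows have 40.8%, 46.8% and 48.0% G and C and 2, 4 and 7 CG dinucleotides. Among these 5 windows, both the higher and the lower genes thus lay on either side of the median share of G and C. The Slit3 window, which holds an annotated exon, had 78.8% G and C and 35 CG dinucleotides. On both strands, the windows of all 10 genes were searched for CCGGAA, a core bound by ETS factors, TGANTCA, bound by AP-1, and TGTGGT, bound by RUNX factors. CCGGAA was found in Sema3d, with its first base 14 bases before the start, and TGTGGT in Sema3a, with its first base 10 bases before it. These letters occur in 12.03% and 14.05% of all promoter windows of this length, and TGANTCA, which none of the 10 windows held, occurs in 6.75%.

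The libraries held 18951710 to 27716975 estimated reads, with 10 or more of them on each of 12103 to 12470 genes. The summed level of 13 osteoblast and osteocyte markers was 11615 to 13756 read counts scaled to library size (CPM) in the DMSO+FGF2 libraries and 17375 to 20635 CPM in the other 9, with Sost and Mepe at 0 reads in all 12. Within groups, 3 libraries lay apart on the first axis of their deviations, at 13.3 to 27.98 against −16.1 to 2.16 for the other 9. They are BGJ398 replicate 1, DMSO+FGF2 replicate 2 and BGJ398+FGF2 replicate 2, and counts are also given without them, a choice made after seeing the data. In bulk RNA, fewer cells of a type and less RNA per cell cannot be told apart.

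With FGF2 in DMSO, 6 of the 9 guidance genes with enough reads to be tested had libraries that did not overlap with those of DMSO. Sema7a and Sema3e were higher, and Slit3, Plxnc1, Sema3d and Sema3a were lower. Sema3c, Slit2 and Nrp1 lay within the spread of the libraries, and Robo1 had too few reads. Of the 12542 genes with enough reads, 37.6% had DMSO and DMSO+FGF2 libraries that did not overlap. Since this difference was known when the genes were listed, nothing is read from these counts. The median log2 fold change of the 9 genes was −0.10, against 0.00 over all genes tested.

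**Figure D1:**
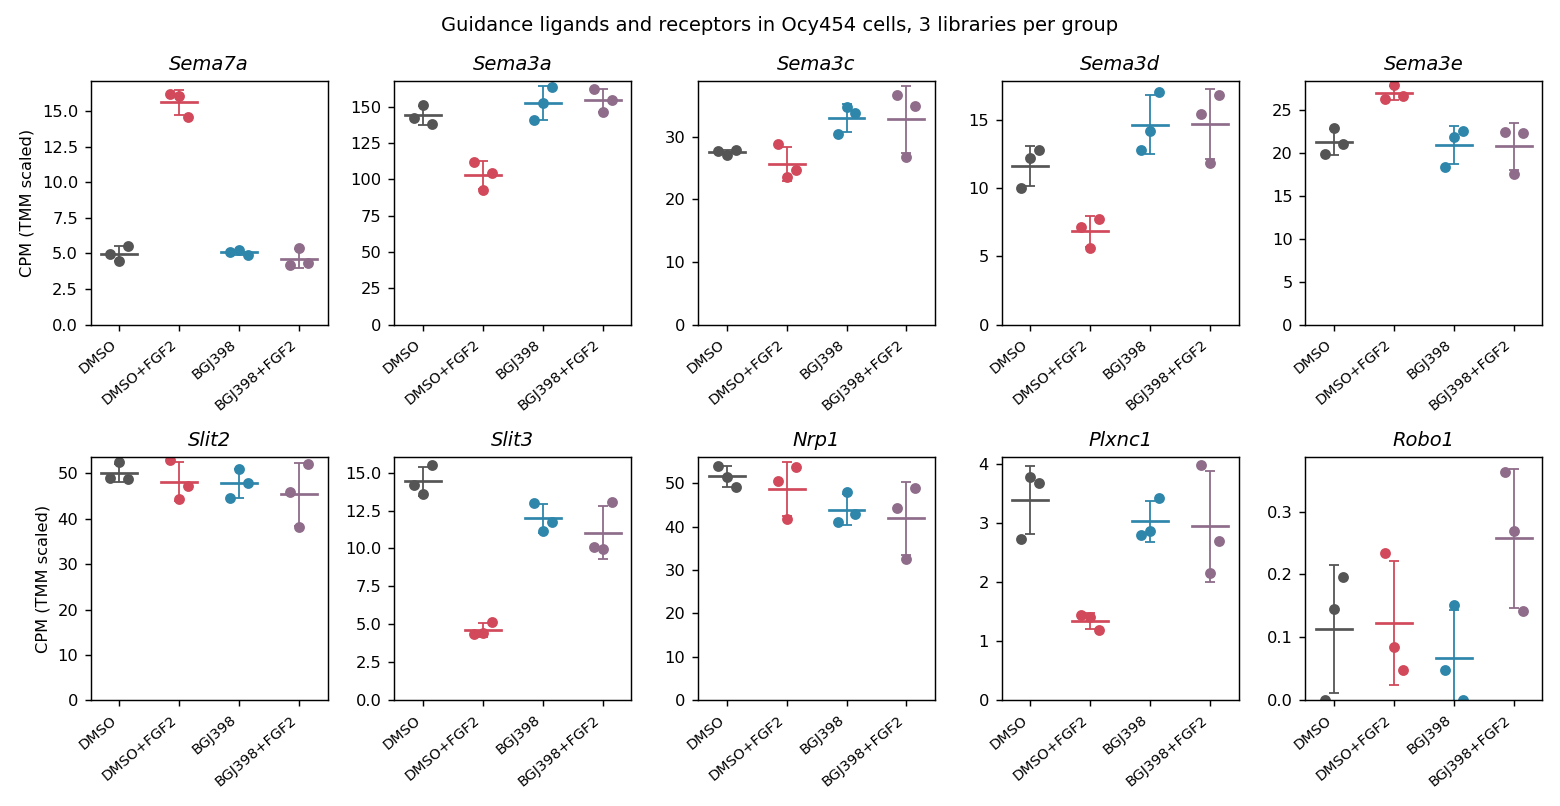
CPM of each guidance gene by group, with 1 point per library and a bar at the mean of 3 libraries, on axes that start at 0. Sema7a stands high and Slit3 low in the DMSO+FGF2 libraries, at 14.6 to 16.2 CPM and 4.34 to 5.19 CPM, and the other 9 libraries span 4.21 to 5.55 CPM and 9.96 to 15.5 CPM.

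Sema7a, the semaphorin held in the membrane by a lipid anchor, had the larger of the positive differences with FGF2. Its level, in CPM scaled by TMM factors, was 4.95, 4.47 and 5.55 in the DMSO libraries and 16.2, 16.1 and 14.6 in the DMSO+FGF2 libraries. It was 5.10, 5.24 and 4.90 CPM in the BGJ398 libraries and 4.21, 5.38 and 4.31 CPM in the BGJ398+FGF2 libraries. The 3 DMSO+FGF2 libraries were the highest of the 12 and overlapped with none, while the other 9 spanned 4.21 to 5.55 CPM. These levels rested on 307 to 414 reads per DMSO+FGF2 library and 91 to 142 reads in the others. The log2 fold change with FGF2 in DMSO was 1.65 ± 0.12 (SE), or 3.13-fold.

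Slit3, the Slit with a known role in bone, showed a difference of like size in the other direction. Its level was 14.2, 13.6 and 15.5 CPM in the DMSO libraries and 4.34, 4.43 and 5.19 CPM in the DMSO+FGF2 libraries. It was 13.003, 11.2 and 11.8 CPM in the BGJ398 libraries and 10.1, 9.96 and 13.1 CPM in the BGJ398+FGF2 libraries. The 3 DMSO+FGF2 libraries were the lowest, with 104 to 111 reads each, and no other library came under 9.96 CPM. The log2 fold change with FGF2 in DMSO was −1.64 ± 0.13 (SE), or 3.11-fold lower. Slit2, its close relative, had 49.0, 52.5 and 48.9 CPM in the DMSO libraries and 52.9, 44.4 and 47.3 CPM in the DMSO+FGF2 libraries. The Slit2 libraries overlapped, with a log2 fold change of −0.06 ± 0.10.

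Among the secreted class 3 semaphorins, Sema3d and Sema3a were lower with FGF2 and Sema3e was higher. Sema3d, a guidance cue for nerves and vessels, had 9.96, 12.2 and 12.7 CPM in the DMSO libraries and 7.15, 5.58 and 7.71 CPM in the DMSO+FGF2 libraries, a log2 fold change of −0.78 ± 0.16. The highest of its DMSO+FGF2 libraries lay below the lowest DMSO library. Sema3a had 143, 151 and 139 CPM in DMSO and 112, 92.7 and 104 CPM in DMSO+FGF2, a log2 fold change of −0.48 ± 0.08, and its libraries did not overlap either.

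Sema3e, which guides vessels through Plxnd1, had 19.9, 22.9 and 21.1 CPM in DMSO and 26.3, 27.9 and 26.7 CPM in DMSO+FGF2. The groups did not overlap, and the log2 fold change was 0.34 ± 0.10, the smallest of the 6. Over 19 alternative settings it ran from 0.29 to 0.40. Sema3c, a cue in heart and nerve development, had 27.2 to 27.8 CPM in DMSO and 23.6 to 28.8 CPM in DMSO+FGF2, with overlapping libraries and a log2 fold change of −0.10 ± 0.11.

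Of the receptors, Plxnc1, the plexin that binds Sema7a, was lower with FGF2, opposite to its ligand. It had 2.73, 3.78 and 3.67 CPM in the DMSO libraries and 1.45, 1.41 and 1.19 CPM in the DMSO+FGF2 libraries. In the BGJ398 libraries it had 2.79, 2.87 and 3.43 CPM, and in the BGJ398+FGF2 libraries 3.98, 2.15 and 2.70 CPM. The DMSO+FGF2 libraries were the lowest 3 of the 12, at 25 to 37 reads each, so these levels are less precise than those of the ligands. The log2 fold change was −1.33 ± 0.24 (SE). Counts rebuilt from TPM with length scaling turned the direction of Plxnc1, to 0.47, and the transcript behind that is given with the transcripts.

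Nrp1, the shared co-receptor of class 3 semaphorins, had 54.0, 51.5 and 49.1 CPM in DMSO and 50.6, 41.9 and 53.9 CPM in DMSO+FGF2. These overlapped, with a log2 fold change of −0.08 ± 0.13. Robo1, a Slit receptor, had 0 to 8 reads per library and 38 in all, and was not tested.

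The marker lists moved with the same groups. With FGF2 in DMSO, 7 of 10 tested osteoblast and osteocyte markers fell and 2 rose, at an adjusted p under 0.05 in edgeR's quasi-likelihood test. Over all genes tested, 13.4% passed this threshold, 7.57% higher and 5.82% lower. Among the markers that fell, the call on Bglap held in 9 of 19 alternative settings (adjusted p up to 0.164). That on Runx2 held in 10 of 19 (up to 0.344), and those on Alpl, Ibsp, Sp7, Col1a1 and Col1a2 held in 19 of 19. Alpl, the phosphatase of mineralizing cells, fell by 3.18 ± 0.13 on the log2 scale (adjusted p = 8.69e-09), whereas Spp1, which encodes osteopontin, rose by 1.34 ± 0.08 (adjusted p = 3.49e-07). Of the other lists, endothelial markers summed to at most 0.353 CPM in a library, and neuron markers to 15.4 to 18.8 CPM in DMSO+FGF2 and 23.9 to 28.2 CPM in DMSO, carried by Map2. Schwann and glial markers summed to 1.83 to 3.83 CPM over the 12 libraries. Macrophage markers summed to 5.71 to 7.19 CPM in DMSO+FGF2 and 2.85 to 3.27 CPM in DMSO, where Cd68, a lysosomal protein, rose by 1.94 ± 0.22 (adjusted p = 6.59e-05 by edgeR). Of the other macrophage markers tested, Lyz2 was at −1.19 ± 0.40 (adjusted p = 0.0658) and Csf1r at −0.75 ± 0.68 (adjusted p = 0.539), and neither passed. Each of the endothelial, neuron, glial and macrophage lists had 1 of its 5 markers at 0 reads in all 12 libraries. The part of these shifts in the differences of the guidance genes was not tested.

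The BGJ398 and BGJ398+FGF2 libraries give a test that shares no library with the difference by which the genes were listed. Earlier results of these data were known at that choice, so the test may not be fully independent of it. There none of the 9 guidance genes passed the test with FGF2. By edgeR 0 of 9 passed the adjusted threshold, as did 0% of the 12542 genes tested, and 0 of 9 had an unadjusted p under 0.05. DESeq2 and limma-voom also called 0 of 9. The log2 fold changes ran from −0.14 to 0.02, and their 95% intervals together spanned −0.53 to 0.46, so that a difference of up to 1.44-fold, for Plxnc1, is not excluded by these libraries. For Sema7a the log2 fold change was −0.14 ± 0.13 and for Slit3 −0.12 ± 0.12, with adjusted p = 1 in edgeR for each. None of the 9 had libraries that did not overlap, against 6.31% of the genes tested. Without the 3 libraries that lay apart the count was 0 again.

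The interaction is the log2 fold change with FGF2 under BGJ398 minus that in DMSO. It contains the difference by which the genes were listed, so it is given with its error alone. It was −1.78 ± 0.17 for Sema7a, 1.52 ± 0.17 for Slit3, 1.30 ± 0.33 for Plxnc1, 0.78 ± 0.22 for Sema3d, 0.50 ± 0.11 for Sema3a and −0.35 ± 0.15 for Sema3e. For Sema3c, Nrp1 and Slit2 it was 0.10, 0.02 and −0.02.

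**Figure D2:**
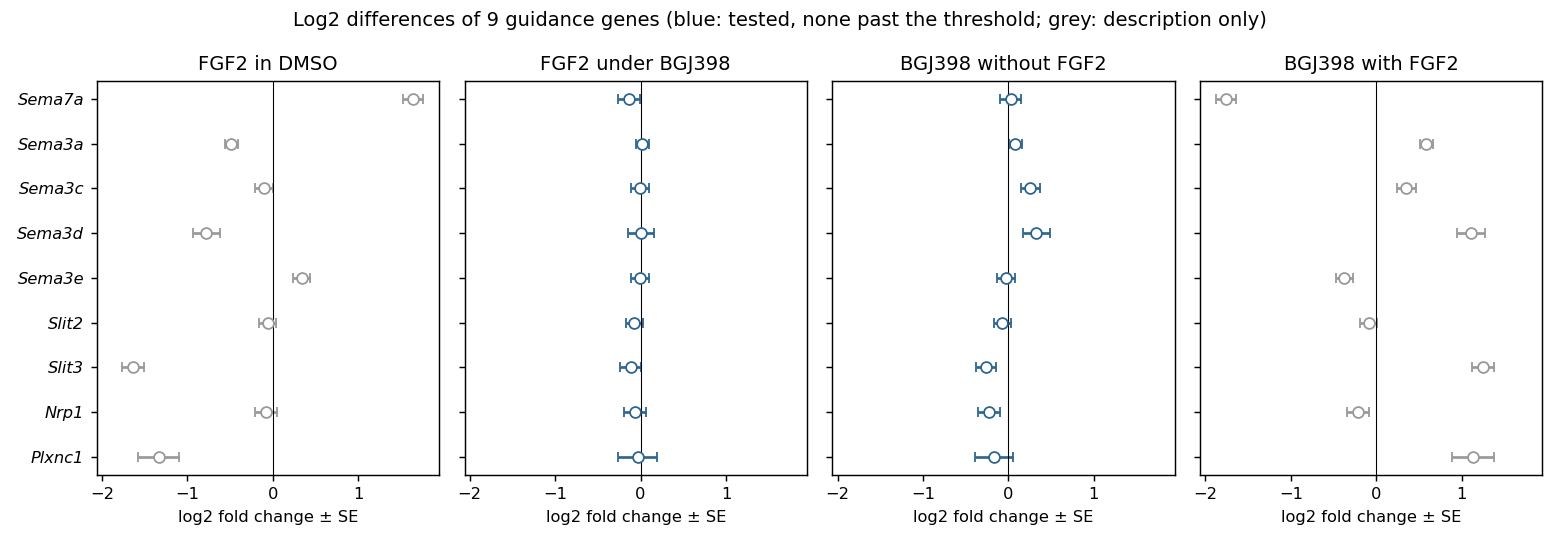
Log2 fold change with its SE for the 9 tested guidance genes in each of 4 comparisons. Blue points mark the 2 comparisons without the DMSO+FGF2 libraries, in which the genes were tested and 0 passed an adjusted p under 0.05 in edgeR, and grey points are a description only. The comparison of BGJ398 without FGF2 includes the DMSO libraries, which were known at the choice of genes. With FGF2 in DMSO the values run from −1.64 for Slit3 to 1.65 for Sema7a, and under BGJ398 from −0.14 to 0.02.

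Cells that received FGF2 were also compared with and without BGJ398, a comparison that shares the DMSO+FGF2 libraries with the difference used to list the genes. The values are therefore given without a test. Libraries did not overlap for 6 of the 9 and for 34.8% of all genes tested, and the median log2 difference was 0.35, against 0.00 over all genes. Nothing is read from these counts.

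The log2 difference of BGJ398+FGF2 from DMSO+FGF2 was −1.76 ± 0.12 (SE) for Sema7a and 1.25 ± 0.13 for Slit3. It was 1.11 ± 0.16 for Sema3d, 1.13 ± 0.24 for Plxnc1 and 0.59 ± 0.08 for Sema3a. For Sema3d, the BGJ398+FGF2 libraries at 15.4, 11.8 and 16.8 CPM all lay above the DMSO+FGF2 libraries. For Sema3a they had 163, 147 and 155 CPM, also above all 3 DMSO+FGF2 libraries. Counts with length scaling turned the direction of Plxnc1 here as well, to −0.89.

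Sema3e differed by −0.37 ± 0.10, with BGJ398+FGF2 libraries at 22.4, 17.6 and 22.4 CPM, all below those of DMSO+FGF2. Sema3c differed by 0.35 ± 0.11, although its BGJ398+FGF2 libraries, at 36.7, 26.7 and 35.0 CPM, overlapped with those of DMSO+FGF2. Nrp1 was at −0.22 ± 0.13 and Slit2 at −0.09 ± 0.10.

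Without FGF2, the inhibitor was compared with vehicle in libraries of which the DMSO group is shared with the FGF2 comparison. The DMSO libraries were known when the genes were listed, so this test is not independent of that choice. By edgeR 0 of 9 guidance genes passed, where 0.327% of all genes did, and 2 had an unadjusted p under 0.05, as had 8.27% of all genes tested. These were Sema3c, at a log2 fold change of 0.26 ± 0.11 (adjusted p = 0.545), and Slit3, at −0.27 ± 0.12 (adjusted p = 0.572). DESeq2 and limma-voom called 0 of 9. Sema3c had 30.4, 34.7 and 33.7 CPM in the BGJ398 libraries, all above the DMSO libraries, and 36.7, 26.7 and 35.0 CPM with FGF2 added. Sema3d, at 12.8, 14.2 and 17.0 CPM, also lay above DMSO, and Slit3 and Nrp1 lay below it. For Sema3d the gap was small, from 12.744 CPM in DMSO replicate 3 to 12.762 CPM in BGJ398 replicate 1. Libraries thus did not overlap for 4 of 9, against 17.2% of all genes tested. Nothing is read from these counts. Without the 3 libraries that lay apart, Sema3c passed, at 0.31 (adjusted p = 0.0226 by edgeR), and it was the only 1 of the 9 to do so. In that setting 730 of all genes were called, against 41 with the 12 libraries, so this call is not particular to the listed genes.

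Levels can be compared between genes only per length, for which the deposited TPM were summed per gene. In the DMSO libraries Sema3a stood first at 73.0 ± 2.31 TPM (SD, n = 3), followed by Nrp1 at 25.8 ± 1.25, Slit2 at 14.5 ± 3.08, Sema3c at 10.0 ± 0.142 and Sema3e at 6.53 ± 0.644 TPM. Sema3d at 4.63 ± 0.113, Slit3 at 4.21 ± 0.282, Sema7a at 2.77 ± 0.398 and Plxnc1 at 1.24 ± 0.391 TPM came next, and Robo1 was last at 0.0266 ± 0.0231 TPM. No neighbours in this order overlapped in their libraries.

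With FGF2 in DMSO the first 4 kept their places, at 44.1, 23.3, 12.8 and 9.59 TPM. Sema7a, at 7.88 ± 0.372 TPM, then overlapped with Sema3e at 7.91 ± 0.220 TPM. Slit3 was at 1.28 ± 0.155 TPM and overlapped with Plxnc1, which overlapped with Sema3d at 2.40 ± 0.391 TPM. The ratio of Sema7a to Slit3 in TPM was 0.591 to 0.733 in the DMSO libraries and 5.12 to 6.77 in the DMSO+FGF2 libraries. It was 0.707 to 0.829 with BGJ398 and 0.592 to 1.13 with BGJ398 and FGF2, so that Sema7a exceeded Slit3 in every DMSO+FGF2 library and in none of DMSO or BGJ398.

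In the BGJ398 libraries the order was that of DMSO, from Sema3a at 65.4 ± 5.28 TPM to Robo1 at 0.0170 ± 0.0201 TPM, with Sema3e and Sema3d overlapping at 6.41 and 5.26 TPM. The BGJ398+FGF2 libraries gave the same order, led by Sema3a at 68.9 ± 13.1 TPM. There the neighbours from Nrp1 to Sema3c overlapped, at 20.7, 12.7 and 11.9 TPM, and so did those from Sema3e to Sema7a, at 6.10, 5.01, 3.28 and 2.62 TPM.

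**Figure D3:**
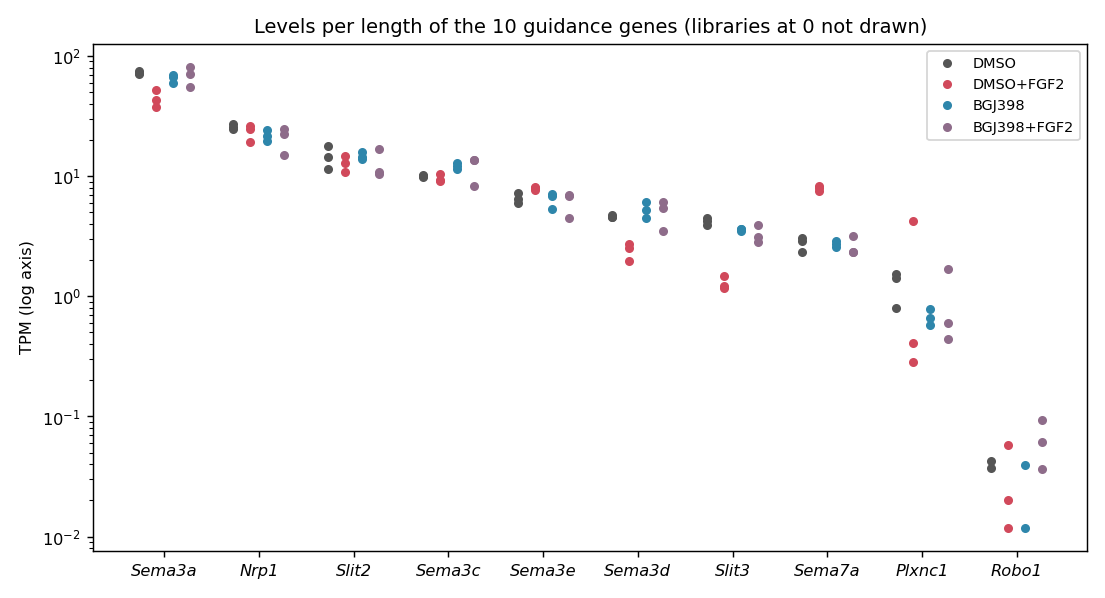
TPM of the 10 guidance genes on a log axis, with 1 point per library coloured by group and libraries at 0 not drawn. Sema3a leads in all groups, at 73.0 TPM in DMSO, and Sema7a and Slit3 change places in the DMSO+FGF2 libraries, at 7.88 and 1.28 TPM.

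The summed TPM rest on transcripts that the deposited estimates divide among the models of each gene. Sema7a came almost wholly from 1 coding transcript, Sema7a-201, with 97.1% of its TPM, and the coding Nrp1-201 and Sema3d-201 held 96.8% of theirs. For 3 genes, short models with few reads weigh heavily per length. Plxnc1-205, a noncoding model of 352 bases, drew 9.09 reads over the 12 libraries but 20.5% of the TPM of Plxnc1, and 94.0% in 1 DMSO+FGF2 library. The full-length Plxnc1-201, of 7302 bases with 707 reads, was at 0.733 ± 0.125 TPM in DMSO, 0.259 ± 0.0215 in DMSO+FGF2, 0.675 ± 0.101 in BGJ398 and 0.642 ± 0.222 TPM in BGJ398+FGF2. On that model the DMSO+FGF2 level was the lowest of the 4 groups, as in the read counts. The Sema3a-205 model of 312 bases, with 76.1 reads, held 11.1% of the TPM of Sema3a, and a retained-intron model of 854 bases held 15.9% of that of Slit2.

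Sema3a and Slit2 were divided among several coding models. Sema3a-201 held 40.7% of the TPM of Sema3a, Sema3a-202 32.9% and Sema3a-204 12.8%. The share of Sema3a-204 was 8.69% ± 1.53 (SD, n = 3) in DMSO and 17.6% ± 0.822 in DMSO+FGF2, and these libraries did not overlap. Its TPM were 6.37 ± 1.31 and 7.81 ± 1.57, while Sema3a-201 was at 27.7 ± 1.93 and 17.8 ± 1.88 TPM and Sema3a-202 at 24.3 ± 1.61 and 13.9 ± 2.57 TPM. The short Sema3a-205 was at 13.1 ± 4.52 and 3.57 ± 2.72 TPM. The mean was thus lower in DMSO+FGF2 for Sema3a-201, Sema3a-202 and Sema3a-205, and not for Sema3a-204. With BGJ398 the share of Sema3a-204 was 9.80% ± 4.14 without FGF2 and 15.02% ± 7.74 with it, and these libraries overlapped. Slit2-216 held 41.9% and Slit2-202 18.3% of the TPM of Slit2. The retained-intron model Sema3c-202 took 3.18% ± 5.51 of Sema3c in DMSO and 20.99% ± 14.6 in DMSO+FGF2. Shares are estimates for overlapping models, and no test was made of them.

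**Figure D4:**
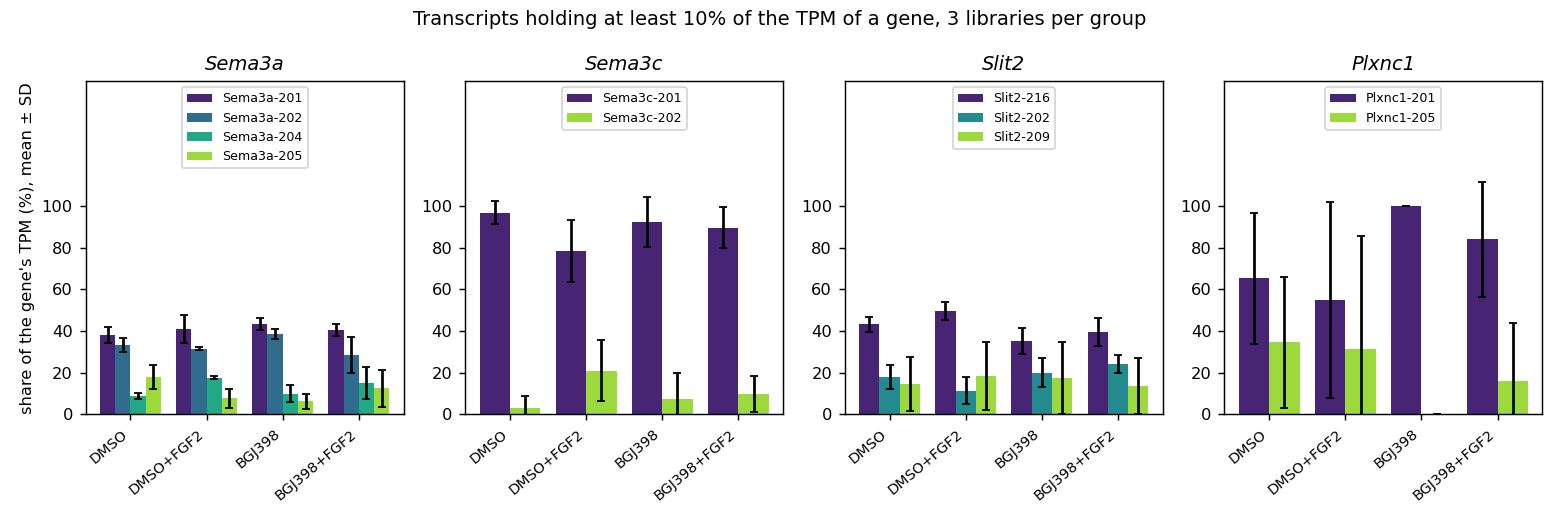
Share of the TPM of each gene held by transcripts with at least 10% on average, as the mean and SD of 3 libraries per group. Sema3a-204 holds 8.69% in DMSO and 17.6% in DMSO+FGF2, and Plxnc1-205 has bars as large as its mean.

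Little of the sequence of these genes is shared with others. Of the 31-base words in their transcripts, 0% for Sema7a and Slit3 and at most 1.99%, for Sema3a, also occur in transcripts of other genes. Exons of Plxnc1 overlap those of Gm48718 and exons of Nrp1 overlap Mir1903 on the same strand, so reads there cannot be told apart. No exon of the 10 genes is overlapped on the other strand in the annotation used.

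The other guidance genes were taken from 7 lists of 107 genes, 84 of them with enough reads. These lists were drawn up with earlier results of these data known. Nothing is therefore read from how their counts compare with those of all genes. With FGF2 in DMSO, 9 of the 84 rose and 17 fell by edgeR, beside the 7.57% and 5.82% of all genes given with the markers. With BGJ398 in the presence of FGF2, 37 of the 84 changed, where 22.2% of all genes did, 10.8% higher and 11.4% lower. The interaction was called for 11 of the 84, against 4.24% of all genes. Under BGJ398 0 of 84 changed with FGF2 by edgeR. The median log2 fold change of the 84 was −0.02 in DMSO and −0.03 under BGJ398, against 0.00 over all genes in each.

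Among 12 other semaphorins tested, 3 rose and 1 fell with FGF2 in DMSO, beside 7.57% and 5.82% of all genes. Sema5a, a transmembrane semaphorin, rose from a mean of 28.3 CPM to 54.2 CPM, by 0.94 ± 0.13 on the log2 scale (adjusted p = 0.000232 by edgeR), and the secreted Sema3g fell by 0.56 ± 0.12 (adjusted p = 0.00637). Both calls held in 19 of 19 alternatives. Sema4b and Sema6c also rose, but these calls held in 13 and 12 of 19, with an adjusted p of up to 0.103 and 0.227. Sema5a fell again with BGJ398 in the presence of FGF2, by 1.28 ± 0.13 (adjusted p = 1.83e-05), and its interaction was −1.15 ± 0.18 (adjusted p = 0.00258). In that comparison with BGJ398, 4 of the 12 fell and none rose by edgeR, beside the 11.4% and 10.8% of all genes. Of these calls, Sema5a and Sema4b held in 19 of 19 alternatives, Sema6b in 16 and Sema4g in 13. Sema6d had 0 reads in all libraries, and Sema5b and Sema6a at most 3 and 5 reads per library.

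Of 9 other receptors tested, none rose and 2 fell with FGF2 in DMSO by edgeR, beside 7.57% and 5.82% of all genes. Itga1, an integrin chain that pairs with Itgb1 into a receptor of Sema7a, fell from 31.2 to 15.5 CPM, by 1.01 ± 0.09 on the log2 scale (adjusted p = 9.19e-06). Nrp2, the other neuropilin, fell from 482 to 382 CPM, by 0.34 ± 0.09 (adjusted p = 0.032), a call lost when any 1 of the 6 DMSO and DMSO+FGF2 libraries was left out, with an adjusted p of up to 0.113. With BGJ398 in the presence of FGF2, Itga1 rose by 0.87 ± 0.09 (adjusted p = 2.48e-05) and Itgb1 by 0.19 ± 0.05 (adjusted p = 0.00818) in edgeR. Plxnd1, the receptor of Sema3e, fell there by 0.27 ± 0.07 (adjusted p = 0.0163). The Plxnd1 call was lost without DMSO+FGF2 replicate 3, without BGJ398+FGF2 replicate 1 and with length-scaled counts, over which the adjusted p reached 0.855.

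Robo2 was the Robo receptor with enough reads to be tested. Its mean of 91.3 CPM in DMSO fell to 67.3 CPM in DMSO+FGF2, a log2 fold change of −0.44 ± 0.10 (adjusted p = 0.00856 by edgeR). It rose by 0.53 ± 0.10 with BGJ398 in the presence of FGF2 (adjusted p = 0.00191), to 97.1 CPM. Per length, Robo2 was at 54.2 ± 1.66 TPM in DMSO, against 0.0266 TPM for Robo1. Robo3 had at most 3 reads in a library, and Robo4, the endothelial Robo, had none. Gpc1, a heparan sulfate proteoglycan that binds Slits, fell by 0.30 ± 0.07 with FGF2 in DMSO (adjusted p = 0.0128) and rose by 0.47 ± 0.07 with BGJ398 in the presence of FGF2 (adjusted p = 0.000395). The first of these calls on Gpc1 was lost without DMSO replicate 2 or 3 or DMSO+FGF2 replicate 1, with an adjusted p of up to 0.061.

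Of the 12 intracellular partners of Robo, 0 changed with FGF2 in DMSO by edgeR, where 13.4% of all genes did. With BGJ398 in the presence of FGF2, 2 of them rose and 1 fell, beside 10.8% and 11.4% of all genes. Srgap1, a GTPase-activating protein that binds Robo, rose there from 1.62 to 3.997 CPM, by 1.29 ± 0.25 (adjusted p = 0.00266). Myo9b, a myosin with GTPase-activating function, fell by 0.35 ± 0.09 (adjusted p = 0.0111). Enah also rose, a call that held in 14 of 19 alternatives. Of 21 partners of plexins, 3 rose and 3 fell with FGF2 in DMSO, beside 7.57% and 5.82% of all genes. Farp2, an exchange factor for Rac, fell by 0.85 ± 0.15 (adjusted p = 0.00193), Rnd3, a small GTPase, fell by 0.35 ± 0.05 (adjusted p = 0.000211) and Mical2, an actin-oxidizing enzyme, rose by 0.34 ± 0.06 (adjusted p = 0.00232). With BGJ398 in the presence of FGF2, 3 of the 21 rose and 8 fell, beside 10.8% and 11.4% of all genes. Of these, Farp1 held in 5 of 19 alternatives, Dpysl3 in 14, Gipc1 in 16, Arhgef11 in 17 and Fes in 18. The rest held in 19 of 19. The calls on Srgap1, Myo9b, Farp2, Rnd3 and Mical2 given here held in 19 of 19 alternatives. Of the other plexin partners called with FGF2 in DMSO, Gipc1 held in 11 of 19, Dpysl3 in 13 and Rras in 17.

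Netrins, RGMs and their receptors had 1 gene that rose and 4 that fell of 10 with FGF2 in DMSO. Over all genes the shares were 7.57% and 5.82%. Neo1, a receptor of netrins and RGMs, fell by 0.43 ± 0.08 (adjusted p = 0.00244 by edgeR). Rgmb, an RGM that also acts as a BMP co-receptor, rose by 0.37 ± 0.07 (adjusted p = 0.00424), a call lost with length-scaled counts (adjusted p = 0.123). Of the other calls in this list, that on Draxin held in 12 of 19 alternatives, on Ntn5 in 9 and on Unc5b in 16. Ephrins and Eph receptors had 2 that rose and 5 that fell of 17, beside the same shares of all genes. Efna5 fell by 0.89 ± 0.09 (adjusted p = 1.65e-05), Efnb2 rose by 0.65 ± 0.08 (adjusted p = 0.000121), Efnb1 fell by 0.48 ± 0.07 (adjusted p = 0.000371) and Epha3 fell by 0.61 ± 0.10 (adjusted p = 0.0013). These 4 calls held in 19 of 19 alternatives.

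**Figure D5:**
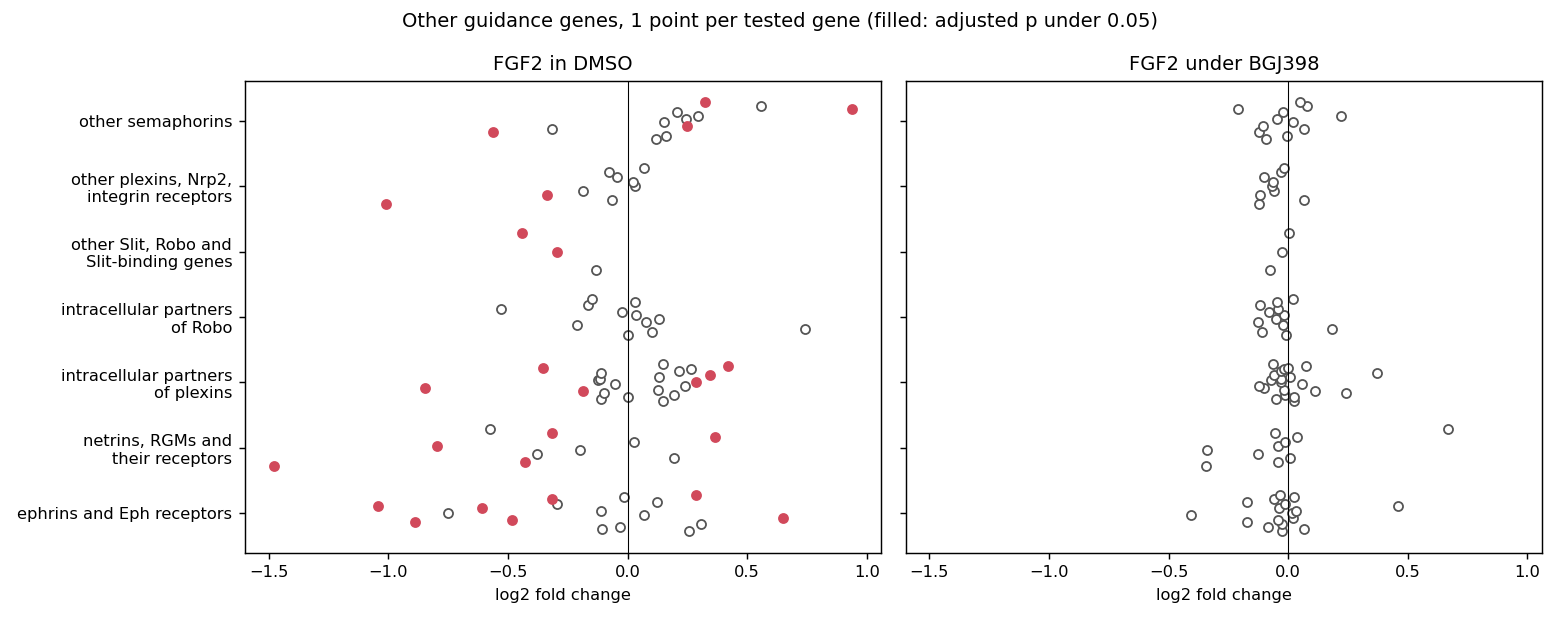
Log2 fold change with FGF2 in DMSO and under BGJ398 for the 84 tested genes of 7 other guidance lists, with 1 point per gene and filled points at an adjusted p under 0.05 in edgeR. In DMSO 26 points are filled, 9 of them to the right of 0 and 17 to the left, and under BGJ398 0 are filled.

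BGJ398 without FGF2 lowered 2 of the 84, where 0.327% of all genes were called in either direction. Dpysl2, a cytoskeletal mediator of Sema3a signals, fell by 0.43 ± 0.08, and Epha2, an Eph receptor, fell by 0.35 ± 0.06 (adjusted p = 0.0308 for each by edgeR). Both calls were lost when any of the 3 DMSO libraries, BGJ398 replicate 2 or 3, or DMSO+FGF2 replicate 1 or 3 was left out. That on Dpysl2 was also lost without BGJ398 replicate 1 or BGJ398+FGF2 replicate 1. The adjusted p then reached 0.151 for Dpysl2 and 0.174 for Epha2 over all alternatives.

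The genes nearest in profile to Sema7a and to Slit3 were found among the 10461 genes that averaged 5 CPM or more, as those with the smallest mean absolute difference in centred log2 CPM over the 12 libraries. For Sema7a they were Spp1 at 0.12, Hmga1, a chromatin protein, at 0.12 and Sdf2l1, a chaperone partner in the endoplasmic reticulum, at 0.14, where the median gene lay at 0.63. Spp1 had 377 CPM in DMSO, 957 in DMSO+FGF2, 307 in BGJ398 and 316 CPM in BGJ398+FGF2. For Slit3 they were Sorbs2, an adaptor protein of the cytoskeleton, at 0.10, Col11a1, a fibrillar collagen chain, at 0.10 and Dlx5, a homeobox factor of osteoblasts, at 0.15, where the median gene lay at 0.53. Dlx5 had 28.8 CPM in DMSO, 11.9 in DMSO+FGF2, 25.3 in BGJ398 and 26.5 CPM in BGJ398+FGF2.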

How the data were processed

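Salmon made the transcript estimates and GRCm39 is the named build, per the submitters' processing notes. Its version, strand setting and bias options are not stated there. The columns deposited by the authors hold, per the file headers, expected counts (estimated reads, not scaled) and TPM (divided by length, then set to the same sum in every library) for each of 116178 transcripts. Names came from GENCODE M21 (GRCm38) and were joined on transcript ID for 114656 transcripts in 35214 genes. The other 1522 transcripts (0.499% to 0.641% of reads) were left out of all totals and tests.

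The counts of a gene were added up, rounded and tested with edgeR 4.0.16 (R 4.3.3): filterByExpr by group kept 12542 genes, with TMM scaling and the 2-sided quasi-likelihood test, with all 12 libraries in 1 model that has a mean for each of 4 groups (8 residual degrees of freedom, biological coefficient of variation 8.49%). Adjusted p-values are Benjamini-Hochberg over all genes tested, with a threshold of 0.05. Each SE is the size of the log2 fold change over the square root of its F statistic. CPM are TMM scaled. No pair of replicates agreed within counting noise (ratio to Poisson 3.24 to 25.5). Intervals cover 95%.

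The genes and lists were chosen with earlier results of these data known. The 10 genes were tested only for FGF2 under BGJ398 and for BGJ398 without FGF2, since the other contrasts use the DMSO+FGF2 libraries they were chosen on. This departs from the written plan, which had a test for BGJ398 with FGF2. The DMSO libraries were known at that choice too, so the test of BGJ398 without FGF2 is not independent of it. Named by rule were the 10 genes, up to 4 genes of each list past the threshold with the smallest p in a comparison, transcripts with a mean share of at least 10%, and the 3 profiles nearest to Sema7a and to Slit3. Genes with few or no reads were named after their values were seen. Alternatives were RLE size factors, DESeq2 1.42.0, limma-voom (limma 3.58.1), no filter on low counts, counts rebuilt from TPM with length scaling, a replicate block, each library left out in turn and, added after seeing the data, 3 libraries left out together. Promoter sequences are from RefSeq (GRCm38.p6). No coordinates are taken from the files.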

Additional observations from a re-analysis of the deposited data

Results flagged for a closer look

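The change with FGF2 differed between cells with and without BGJ398 by edgeR's interaction test for 11 of the 84 other guidance genes. Over all genes tested 4.24% were called, and the lists were drawn up with earlier results known. The log2 fold change with FGF2 under BGJ398, less that in DMSO, was −1.15 for Sema5a, 0.89 for Itga1, 0.35 for Rnd3, −0.63 for Efnb2 and 0.72 for Efna5. It was 1.503 for Epha4, 0.44 for Efnb1, −0.40 for Mical2, −0.35 for Sema4b, 0.30 for Dpysl3 and 0.57 for Epha3.

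Several of these calls were lost when a single library was left out. Epha4 missed the threshold without DMSO replicate 2 (adjusted p = 0.0543 by edgeR). Sema4b missed it without any 1 library other than BGJ398+FGF2 replicate 3, with an adjusted p of up to 0.194 over its alternatives. Dpysl3 missed it without any 1 library other than DMSO+FGF2 replicate 2 and BGJ398+FGF2 replicate 2 (up to 0.091), and Epha3 without any other than DMSO+FGF2 replicate 3 and BGJ398+FGF2 replicate 2 (up to 0.122). Efnb1 missed it without DMSO replicate 2, BGJ398 replicate 2 or 3, or DMSO+FGF2 replicate 1 or 3 (up to 0.0685), and Mical2 without DMSO replicate 3, DMSO+FGF2 replicate 3 or BGJ398+FGF2 replicate 1 (up to 0.0664). Efna5 missed it with length-scaled counts (0.0558).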

How the results depend on the processing

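Over 19 alternatives, the log2 fold change with FGF2 in DMSO ran from 1.57 to 1.73 for Sema7a, −1.72 to −1.58 for Slit3, −0.65 to −0.42 for Sema3a and −0.88 to −0.65 for Sema3d. None of the 9 genes was called for FGF2 under BGJ398 in 19 of 19 alternatives. For BGJ398 without FGF2, Sema3c was called in 1 of 19 and the other 8 in 0. Counts rebuilt from TPM with length scaling reversed Plxnc1, to 0.47 for FGF2 in DMSO, −0.89 for BGJ398 with FGF2 and −0.019 for the interaction. The short Plxnc1-205 model carried up to 94.0% of the TPM of Plxnc1 in DMSO+FGF2, 61.3% in DMSO and 47.9% in BGJ398+FGF2. With length-scaled counts 1815 genes and 24 genes of the other guidance lists were called for BGJ398 with FGF2, against 2782 and 37. For the interaction 350 and 7 were called, against 532 and 11. For BGJ398 without FGF2, where 41 genes were called, DESeq2 called 149, no filter 83 and length-scaled counts 12, and the 2 calls in the guidance lists fell to 0 with length-scaled counts. For FGF2 under BGJ398, where 0 genes were called by edgeR and 325 had an unadjusted p under 0.05, DESeq2 called 5 and no filter 6. DESeq2 called 821 genes for the interaction. The cause of these differences was not tested.

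Without the 3 libraries that lay apart, 2611 genes were called for FGF2 in DMSO, against 1680, 4 for FGF2 under BGJ398, 730 for BGJ398 without FGF2 (with 8 guidance list genes and 1 of the listed genes, Sema3c) and 1038 for the interaction (with 21 guidance list genes). With each library left out in turn, 1018 to 2256 genes and 17 to 33 guidance list genes were called for FGF2 in DMSO, 0 to 1 genes for FGF2 under BGJ398, and 9 to 104 genes and 0 to 2 guidance list genes for BGJ398 without FGF2. For the interaction the ranges were 328 to 956 genes and 6 to 19 guidance list genes. Where a group keeps 2 libraries, the fit shares its spread with the others.

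The replicate numbers did not pair the libraries: same-numbered libraries deviated with a correlation of −0.15 to 0.24, above 0.1 in 2 of 18 pairs, and 5 of 12 libraries correlated best with their own number. With the replicate block, FGF2 called 1503 genes in DMSO and 0 under BGJ398. BGJ398 called 21 genes without FGF2, with 0 of the listed genes and 0 guidance list genes, and 2565 with it, and the interaction called 428. Depth limits Plxnc1, at 25 to 37 reads in a DMSO+FGF2 library, and Robo1, at 0 to 8.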
